A study of Mus musculus with 12 samples.

Results

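The effect of a lentivirus carrying the microRNA miR-29, against an empty lentivirus, was described across all genes in mouse cortical cultures that had gone through oxygen-glucose deprivation (OGD). The 6 libraries were those labelled OGD-miR-29 and OGD-empty, 3 of each, out of 12 in the study, and they were chosen by their labels alone. Cultures were prepared from the cortex of late-gestation C57BL6 embryos and infected on day 6 in vitro at a total multiplicity of infection of 2. On day 14 they were kept without oxygen and glucose for 3 h, a culture model of ischemia, and RNA was extracted after 4 h of recovery in normal medium. All 6 cultures therefore carried a lentivirus and all had gone through OGD, so the groups differed by the miR-29 insert. The labels did not name the promoter, the miR-29 family member or the cell types that took up the virus. Same-numbered cultures were dissected on the same day, and the 3 numbers stand for 3 days. The sham groups, rinsed in the same buffer and kept in normal oxygen, entered the fit and were used for 1 comparison, with n = 2 for sham-empty and n = 3 for sham-miR-29.

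MicroRNAs are short RNAs that guide Argonaute proteins to messenger RNAs, mostly by pairing of the seed near their 5′ end with the 3′ untranslated region (3′ UTR), which lowers the stability or the translation of the target. The miR-29 family is abundant in mature neurons and astrocytes, and collagens, DNA methyltransferases, the TET demethylation enzymes and pro-apoptotic BH3-only genes are among its reported targets. A virus that adds miR-29 would act on such messages directly, and on many other genes only through them.

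The family members share the seed, bases 2 to 8, which is what defines the matches searched for in the 3′ UTRs. The mature mouse sequences are given 5′ to 3′ from RefSeq (GRCm38.p6) with the seed in capitals.
miR-29a-3p: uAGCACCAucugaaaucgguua
miR-29b-3p: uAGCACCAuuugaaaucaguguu
miR-29c-3p: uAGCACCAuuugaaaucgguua
The first is encoded on chromosome 6 (31062673 to 31062694, minus strand), the second shown from its copy on chromosome 1 (195037091 to 195037113, plus strand) and the third also on chromosome 1 (195037600 to 195037621, plus strand). The level of miR-29 itself was not analysed here, so the label of the virus was not checked on the RNA.

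Depth was low and differed between libraries. The summed counts were 5765127, 1400957 and 1465641 in OGD-empty replicates 1 to 3 and 6616920, 2518938 and 1901594 in OGD-miR-29 replicates 1 to 3, and 57.57% to 82.25% of these were in the 37 rows of the mitochondrial genome. Outside those rows the sums were 393825 to 1362484. Reads could be counted for more than 1 gene, so the sums are not numbers of reads. OGD-empty replicate 2 stood apart. It had the lowest mitochondrial share of the 6, 57.57% against 73.13% to 82.25% in the others, and lay at 76.3 on the first principal component (46.2% of the variance), against 36.5 and 41.2 for the other OGD-empty libraries and -24.7 to -43.2 for OGD-miR-29. The count of called genes, the length classes, the largest falls and some of the lists are given with and without it. Many other falls of single genes are given with it only. Of 94 calls in named genes, 88 were kept without it.

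After OGD, the virus effect reached a large share of the transcriptome in both directions. Short genes of energy metabolism, the ribosome and the proteasome were higher in miR-29-virus cultures. Long neuronal genes for receptors, channels and adhesion molecules were lower. Of 12119 genes tested, 4501 (37.1%) were called at an adjusted p under 0.05 by edgeR's quasi-likelihood test with Benjamini-Hochberg adjustment, 2085 higher (17.2%) and 2416 lower (19.9%). The median change was 0.99 on the log2 scale among the called rises and -1.20 among the called falls. Of the called genes, 1015 were over 2-fold higher and 1663 over 2-fold lower. The direction was the same in 3 of 3 same-day pairs for 4424 of the 4501, and the values of the groups did not overlap for 4293, against 6075 (50.1%) of all genes tested. Without OGD-empty replicate 2 the count was 4180 (34.7%), 1851 higher (15.4%) and 2329 lower (19.4%).

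The direction of change followed the length of the gene, here the distance between its annotated ends. Called rises had a median length of 7.24 kb and called falls of 102 kb, against 23 kb for all genes tested with a length. When the 11920 genes with a length were put into 5 classes of equal size, the median log2 fold change went from 0.54 in class 1 (up to 5.22 kb) through 0.42, 0.17 and -0.23 to -0.96 in class 5 (79.13 kb and longer). Class 1 held 849 called rises and 149 called falls, and class 5 held 32 rises and 1397 falls. Spearman's rho between fold change and length was -0.58 across these genes, which share libraries and are not independent. Without OGD-empty replicate 2 the medians of classes 1 and 5 were 0.48 and -0.73.

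The length trend could be followed library by library. Among counts outside the mitochondrial rows, class 5 took 29.96%, 46.81% and 30.68% in OGD-empty replicates 1 to 3 and 17.47% to 20% in the 3 OGD-miR-29 libraries. In the sham libraries the share was 20.8% to 26.92%. All 3 OGD-empty libraries thus lay above, and all 3 OGD-miR-29 libraries below, every sham library. Class 1 ran the other way, with 11.93% to 17.49% in OGD-empty, 23.39% to 26.91% in OGD-miR-29 and 19.08% to 24.01% in sham.

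**Figure D1:**
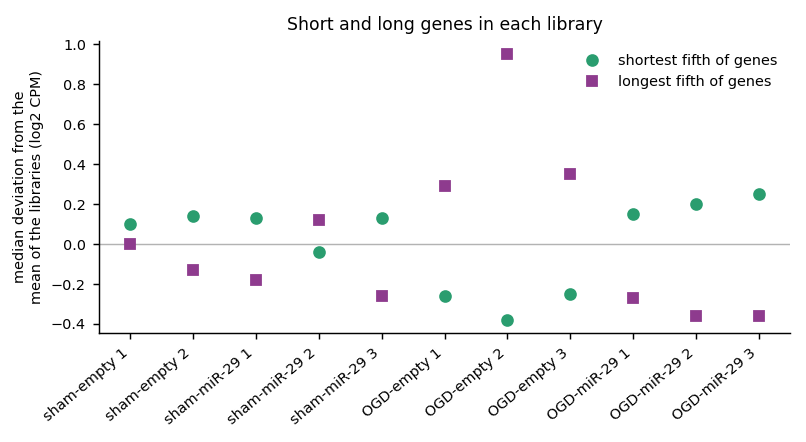
Each library's median deviation from the mean of the 11 libraries (log2 CPM, vertical axis) for the shortest (circles) and longest (squares) class of genes. The longest genes lie at 0.29, 0.95 and 0.35 in OGD-empty replicates 1 to 3 and at -0.27, -0.36 and -0.36 in OGD-miR-29, with sham libraries between -0.26 and 0.12.

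Because length moved with the groups, values are also given from a length-adjusted fit, in which the trend of log2 CPM on gene length was removed from each library and the replicate number was added as a block. Spearman's rho between fold change and length was then -0.061. This fit called 2900 of 11920 genes (24.3%), 1416 higher (11.9%) and 1484 lower (12.4%), of which 2093 were also called without the correction. The fit removes whatever runs along length, of any origin.

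**Figure D2:**
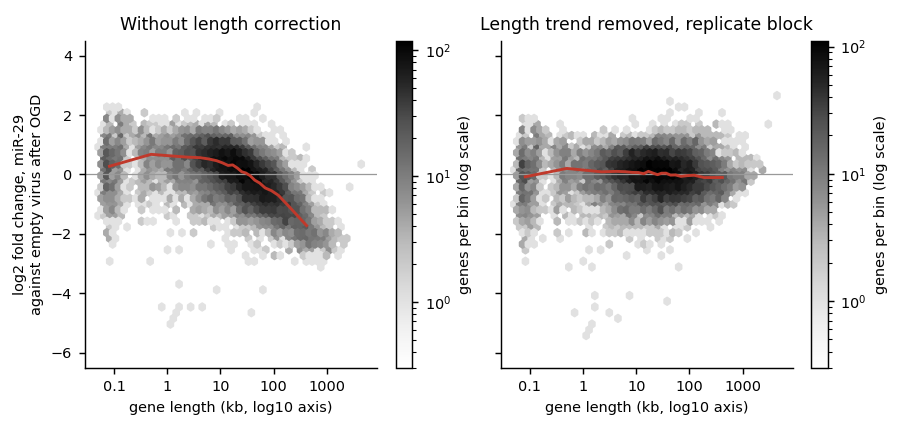
Log2 fold change of miR-29 against empty virus after OGD (vertical axis) for each gene against its length in kb (horizontal axis, log scale), before and after the length trend was removed with the replicate block added. The shade gives the number of genes and the line the running median, which falls with length over most of the range on the left and stays near 0 on the right.

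The largest rises that met the naming rule were in short housekeeping genes of mitochondria, translation and membrane traffic. Prdx5, a peroxiredoxin that removes peroxides in mitochondria and peroxisomes, lies on chromosome 19 (6906697 to 6910106, GRCm38). It was at 7.88, 12.6 and 10.2 CPM in OGD-empty replicates 1 to 3 and at 27.2, 31.9 and 40.9 CPM in OGD-miR-29. The lowest miR-29 library was above the highest empty library, and the log2 fold change was 1.73 ± 0.28 (SE; adjusted p = 0.000571, edgeR). Usmg5, a small subunit associated with the mitochondrial ATP synthase, went from 6.02, 8.58 and 5.36 CPM to 18.2, 16.1 and 28.4 CPM (1.64 ± 0.30). Hint1, a nucleotide-binding hydrolase, went from 21.8, 21.7 and 25.7 CPM to 56.9, 58.7 and 83.7 CPM (1.53 ± 0.21). In both genes the groups were apart, as in Prdx5, because the naming rule required it. Aurkaip1, a mitochondrial ribosome protein, Guk1, which makes GDP from GMP, Mcfd2, a cargo receptor partner of the secretory pathway, Rabac1, a Rab-binding membrane protein, Rps4x of the small ribosomal subunit and the initiation factor subunit Eif3i rose by 1.6, 1.57, 1.55, 1.52, 1.5 and 1.49 on the log2 scale. Rpph1, the RNA of ribonuclease P, on chromosome 14 (50807449 to 50807767), was at 918, 1322 and 1129 CPM against 2377, 2711 and 4917 CPM (1.57 ± 0.29). All of these genes are short, the longest being Mcfd2 at 11.5 kb, and each stayed called in the length-adjusted fit, at 0.97 (Rps4x) to 1.24 (Prdx5).

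Nuclear-encoded genes of oxidative phosphorylation, which build the respiratory chain complexes and the ATP synthase, rose as a group. Of 48 measured, 44 were called higher and 0 lower, against 17.2% and 19.9% of all genes, and the median log2 fold change was 1.08 against 0.02 for all genes tested. The summed level was 1280, 1263 and 1266 CPM in OGD-empty replicates 1 to 3 and 2322, 2400 and 2842 CPM in OGD-miR-29, so the empty-virus libraries barely differed among themselves. In the length-adjusted fit 32 were higher and 1 lower with a median of 0.74. The 1 lower there was Uqcrq, which holds fewer counts than its neighbour Aff4. Several called rises also held fewer counts than a neighbour, among them Cox4i1, Ndufb10, Atp5g1 and Cox6c. Other called rises, among them Ndufa4, Ndufa8, Sdhd and Cox7a2, had no neighbour with counts in their region.

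Genes of the cytosolic ribosome and the proteasome moved the same way. Of 32 cytosolic ribosomal protein genes, 24 were called higher and 0 lower (median 1.18; 18 and 0 with a median of 0.72 in the length-adjusted fit). Rplp1, an acidic protein of the large-subunit stalk, was at 13.1, 10.8 and 12.9 CPM in OGD-empty and 28.5, 31.1 and 40.4 CPM in OGD-miR-29 (1.41 ± 0.22), and the groups were apart. Ribosomal protein genes have many processed copies, and reads shared with these cannot be assigned. Of 31 proteasome subunit genes, 19 were higher and 0 lower (median 0.78; 15 and 0 with 0.59 length-adjusted). The catalytic-core subunit Psmb6 went from 8.96, 10.8 and 11.3 CPM to 20.6, 29.1 and 31.2 CPM (1.39 ± 0.25), the ATPase Psmc4 of the regulatory particle rose by 1.28 ± 0.25 and the core subunit Psma6 by 1.20 ± 0.24. Psma6, at 34.2 kb, kept its size in the length-adjusted fit (1.23 ± 0.22). Of 29 translation factors 11 were higher (37.9%) and 2 lower (6.9%), with a median of 0.51 (6 and 2 with 0.24 length-adjusted). Mitochondrial ribosomal protein genes had 7 higher (25%) and 1 lower of 28 (median 0.58), against 17.2% and 19.9% of all genes, and 2 and 2 length-adjusted (median 0.19). Their summed level did not separate the groups, at 368.3, 299 and 335.6 CPM in OGD-empty and 351.2, 303.3 and 326.4 CPM in OGD-miR-29. The change was above 0 in 22 of the 28 and below 0 in 6. Several rows held fewer counts than a neighbour, among them Mrps27, the 1 called lower (-1.34 ± 0.29). The sum can therefore hold counts shared with other genes.

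Glycolytic enzymes rose less uniformly. Of 18 measured, 8 were higher (44.4%) and 0 lower, against 17.2% and 19.9% of all genes. The median was 0.52 (8 and 0, median 0.45 length-adjusted). Pkm, the last enzyme of the pathway, was at 82.3, 86.3 and 86.3 CPM against 149, 190 and 226 CPM (1.15 ± 0.21, adjusted p = 0.000749). Aldoa and the neuronal enolase Eno2 rose by 0.90 ± 0.18 and 0.84 ± 0.20. The groups were apart in all 3 genes, and the length-adjusted values were 1.00, 0.50 and 0.47.

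**Figure D3:**
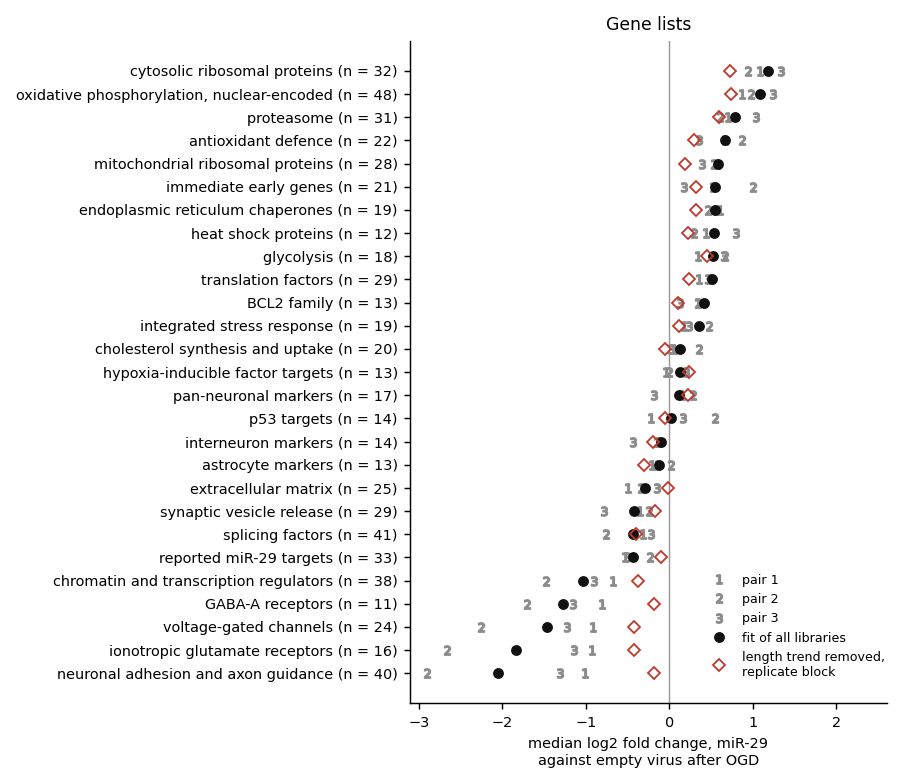
Median log2 fold change of miR-29 against empty virus after OGD (horizontal axis) for gene lists with at least 10 measured members. Filled circles are the fit of all libraries, open diamonds the length-adjusted fit, and the digits the same-day pairs. Pair 2, which holds OGD-empty replicate 2, lies farthest to the left in the receptor, channel and adhesion lists, where the diamonds lie between -0.42 and -0.19.

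Promoters of the respiratory chain genes were searched for the NRF1 element, the binding motif of a factor known for its role in mitochondrial gene expression. The motif GCGCNTGCGC was matched on both strands in windows of 250 bases before to 50 bases after the start (RefSeq, GRCm38.p6). It was in 4.6% of all 32851 windows, in 11.8% of the 7912 tested genes with a window, in 15.4% of called rises and in 9.31% of called falls. In the length-adjusted fit it was in 12.7% of called rises and 9.36% of called falls, and in length classes 1 and 2 it was in 15.1% of called rises and 12.7% of tested genes. Among oxidative phosphorylation genes it was in 11 of 36 (30.6%), among proteasome genes in 6 of 25 (24.0%) and among cytosolic ribosomal protein genes in 3 of 21 (14.3%). The windows of the 2 called respiratory chain genes with a match and the lowest p are shown because these genes moved together, with the match in capitals.
Atp5h: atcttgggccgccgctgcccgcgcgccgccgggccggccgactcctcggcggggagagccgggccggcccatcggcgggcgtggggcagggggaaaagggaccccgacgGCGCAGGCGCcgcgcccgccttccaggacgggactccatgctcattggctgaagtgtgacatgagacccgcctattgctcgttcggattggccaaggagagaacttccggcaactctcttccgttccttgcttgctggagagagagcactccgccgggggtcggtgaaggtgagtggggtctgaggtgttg
Atp5g3: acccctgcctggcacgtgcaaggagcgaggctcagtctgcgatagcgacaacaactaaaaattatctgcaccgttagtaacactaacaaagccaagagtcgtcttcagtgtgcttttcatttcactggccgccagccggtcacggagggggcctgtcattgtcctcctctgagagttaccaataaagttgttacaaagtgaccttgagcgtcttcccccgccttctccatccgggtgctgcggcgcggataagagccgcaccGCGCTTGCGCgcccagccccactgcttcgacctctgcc
The first window is chr11:115419870-115420169 and the second chr2:73911277-73911576, both on the minus strand. Both genes encode parts of the ATP synthase. Atp5h was at 7.10, 6.77 and 6.97 CPM in OGD-empty and 16.9, 19.3 and 18.3 CPM in OGD-miR-29 (1.37 ± 0.24, adjusted p = 0.000603), and Atp5g3 at 30.9, 26.2 and 26.8 against 54.0, 61.0 and 73.6 CPM (1.15 ± 0.21, adjusted p = 0.000706). The counting regions are shared with Ict1 and Gm10822, which held 1.55 and 0.997 of their counts. A match is a description of these letters and says nothing of binding.

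The largest falls were in long neuronal genes, and their size depended on OGD-empty replicate 2. Ntng1, a netrin-family protein that patterns axons and synapses, spans 364 kb on chromosome 3 (109780040 to 110144011). It was at 11.3, 42.9 and 12.9 CPM in OGD-empty replicates 1 to 3 and at 2.94, 2.76 and 2.40 CPM in OGD-miR-29. The groups were apart, as the naming rule required, with replicate 2 far above the other empty-virus libraries. The log2 fold change was -2.94 ± 0.57 (adjusted p = 0.00327, edgeR), -2.10 without replicate 2 and -1.47 ± 0.31 in the length-adjusted fit. Cadm2, a synaptic cell adhesion molecule of 965.5 kb, was at 125, 537 and 158 CPM against 51.3, 37.0 and 38.9 CPM (-2.67 ± 0.61), -1.74 without replicate 2 and -0.57 ± 0.19 length-adjusted. Alk, a receptor tyrosine kinase of 735.7 kb, was at 15, 79.0 and 20.4 CPM against 4.41, 4.73 and 4.33 CPM (-3.03 ± 0.77), -1.94 without replicate 2 and -1.02 ± 0.27 length-adjusted. In each of the 3 genes the libraries of the miR-29 virus were close together and those of the empty virus were not.

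The other falls named by the rule were alike in length and pattern. They were the transcription factor Npas3 (-2.88), the galactosyltransferase B3galt1 (-2.85), Nkain3, which interacts with the sodium pump (-2.82), the secreted Fam19a1 (-2.75), the synaptic organiser Mdga2 (-2.72), the heparan sulfate proteoglycan Gpc6 (-2.69) and the heparan sulfate sulfotransferase Hs3st5 (-2.69), of 327.6 to 1051.2 kb. Without OGD-empty replicate 2 all 7 stayed called, at -1.40 (Hs3st5) to -1.98 (Npas3). In the length-adjusted fit they lay between -0.53 (Gpc6, adjusted p = 0.0847, no longer called) and -1.07 (B3galt1). Their errors were large, and several calls were lost when 1 miR-29 library was left out. The adjusted p of Alk, B3galt1, Hs3st5 and Mdga2 was 0.0526 to 0.0921 without any 1 of OGD-miR-29 replicates 1, 2 or 3. That of Fam19a1 was 0.0664 and 0.0549 without replicates 1 and 2, that of Gpc6 0.0612 and 0.0533 without replicates 1 and 3, and that of Npas3 0.0529 without replicate 3. The fold changes without these libraries were -2.44 to -3.07.

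Genes of neuronal excitability and contact fell as groups, and the length-adjusted fit took away most of their fall. Over all genes, 19.9% were called lower and 17.2% higher, and 12.4% and 11.9% length-adjusted. Of 40 adhesion and axon guidance genes 37 were lower and 0 higher (median -2.05, median length 662.5 kb), against 10 lower and 3 higher with a median of -0.19 in the length-adjusted fit. All 24 voltage-gated channel genes were lower (median -1.47), against 8 lower and a median of -0.42. Of 16 ionotropic glutamate receptor genes 14 were lower (median -1.84), against 4 and -0.42. Of 11 GABA-A receptor subunit genes 6 were lower (median -1.27), against 4 and -0.19. Without OGD-empty replicate 2 the 4 medians were -1.22, -1.14, -1.12 and -0.98, with 39, 23, 13 and 6 genes lower. The summed level of the adhesion genes was 2879, 11020 and 3266 CPM in OGD-empty and 1402, 1316 and 1333 CPM in OGD-miR-29, which shows replicate 2 apart and the groups not overlapping.

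Some members of these lists were lower by either fit. Gabra2, the alpha2 subunit of the GABA-A receptor, was at 29.5, 66.4 and 33.2 CPM in OGD-empty and 10.1, 8.27 and 7.21 CPM in OGD-miR-29 (-2.27 ± 0.30, adjusted p = 0.000483; -1.46 ± 0.22 length-adjusted). The beta2 subunit gene Gabrb2 fell by 1.64 ± 0.25 (-0.64 ± 0.19 length-adjusted). The AMPA receptor subunits Gria2 (-1.40 ± 0.24) and Gria3 (-2.17 ± 0.36) and the NMDA receptor subunit Grin2b (-2.20 ± 0.32) were at -0.71, -1.01 and -0.69 in the length-adjusted fit, all called. Of the sodium channel genes, Scn3a kept its call (-1.36 ± 0.25; -0.77 ± 0.22 length-adjusted), whereas Scn2a1 (-1.22 to -0.46, adjusted p = 0.0527) and Scn8a (-1.40 to -0.53, adjusted p = 0.0802) did not. The guidance cue Slit2 and the ephrin receptor Epha5 fell by 1.86 and 2.08, and by 0.54 and 0.67 length-adjusted, both called. Cntn1, an axonal adhesion molecule, fell by 1.06 ± 0.22 but was at 0.09 ± 0.19 in the length-adjusted fit.

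Presynaptic genes were divided. Of 29 genes of vesicle release 13 were lower (44.8%) and 1 higher (3.45%), against 19.9% and 17.2% of all genes. The median was -0.42 (6 lower and 3 higher with -0.17 length-adjusted). Without OGD-empty replicate 2, 14 were lower and 1 higher, with a median of -0.58. Stxbp5, a syntaxin-binding regulator, and Bsn, a scaffold of the active zone, fell by 1.44 ± 0.26 and 1.21 ± 0.27, and stayed called length-adjusted at -0.64 and -0.70. The calcium sensor Syt1 was at 252, 434 and 226 CPM against 114, 80.7 and 61.5 CPM (-1.82 ± 0.33), but the length-adjusted value was -0.34 ± 0.21 (adjusted p = 0.235).

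Nuclear regulators were mostly lower. Their counts stand beside 19.9% lower and 17.2% higher of all genes, and 12.4% and 11.9% length-adjusted. Of 38 genes for chromatin and transcription regulators 31 were lower and 1 higher, with a median of -1.03 (7 and 0 with -0.38 length-adjusted). Without OGD-empty replicate 2, 29 were lower and 0 higher, with a median of -0.85. The 1 higher gene was the remodeller Chd3 (0.51 ± 0.19), whose neighbour A030009H04Rik held 0.69 of its count and which was not called length-adjusted or without any 1 OGD library other than OGD-miR-29 replicate 1 (adjusted p = 0.0764 to 0.162). Kdm6a, an H3K27 demethylase, was at 16.2, 34.3 and 20.4 CPM in OGD-empty and 7.72, 4.33 and 6.73 CPM in OGD-miR-29 (-1.83 ± 0.31; -1.10 ± 0.25 length-adjusted). The chromatin remodeller Atrx fell by 1.51 ± 0.24 and the transcription factor Tcf4 by 1.81 ± 0.26, with -0.82 ± 0.20 and -0.47 ± 0.18 length-adjusted, both called. Of 41 splicing factor genes 16 were lower and 5 higher (median -0.44; 12 lower and 1 higher with -0.40 length-adjusted). The genes called differed between the fits, and 8 were lower in both. These were 12 and 2 without OGD-empty replicate 2. Hnrnpd, an RNA-binding protein of AU-rich messages, spans 23 kb and was at 21.9, 23.9 and 19.8 CPM against 9.37, 3.94 and 7.21 CPM (-1.61 ± 0.32; -1.71 ± 0.28 length-adjusted). The muscleblind splicing regulators Mbnl2 and Mbnl1 fell by 1.46 and 1.32, with -0.63 (called) and -0.53 (adjusted p = 0.0561) length-adjusted.

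Several genes moved against, or without regard to, the length trend, and these had the lowest p in the length-adjusted fit. The short genes Pura, Kcna5, Kcna1 and Sfpq fell, although in classes 1 and 2 called rises outnumbered called falls (849 to 149 and 651 to 103). Pura, a single-stranded nucleic acid-binding protein of neuronal RNA transport, was at 58.4, 43.4 and 53.1 CPM in OGD-empty and 20.9, 10.6 and 11.1 CPM in OGD-miR-29 (-1.80 ± 0.27, adjusted p = 0.000542; -2.15 ± 0.23 length-adjusted). Kcna5, a potassium channel gene of 2.9 kb on chromosome 6 (126532551 to 126535412), was at 45.7, 79.5 and 45 against 25.5, 15.8 and 13.9 CPM (-1.57 ± 0.26; -2.01 ± 0.23 length-adjusted). Its neighbour in the family, Kcna1, was at 38.0, 37.9 and 34.8 against 21.5, 11.4 and 10.1 CPM (-1.3 ± 0.25; -1.72 ± 0.22 length-adjusted). Sfpq, a paraspeckle RNA-binding protein, was at 42.8, 49.7 and 34.8 against 19.7, 17.3 and 14.4 CPM (-1.29 ± 0.22; -1.54 ± 0.19 length-adjusted). In all 4 genes the groups were apart, which the naming rule required. Without OGD-empty replicate 2 the falls were 1.91, 1.26, 1.28 and 1.20. The m6A reader Ythdf3 and Tsc22d2, a TSC22 domain protein, fell by 1.71 and 1.90, with -1.62 and -1.66 length-adjusted.

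Longer genes that rose were found too. Fez1, a kinesin adaptor of axonal transport, spans 57.1 kb and was at 57.1, 55.1 and 53.1 CPM in OGD-empty and 105, 102 and 138 CPM in OGD-miR-29 (1.06 ± 0.20, adjusted p = 0.000775; 1.33 ± 0.18 length-adjusted). Acot7, an acyl-CoA thioesterase of neurons, was at 28.7, 33.0 and 20.9 against 46.1, 57.5 and 50.5 CPM (0.89 ± 0.21; 1.41 ± 0.20 length-adjusted). Sult4a1, a brain sulfotransferase-like protein, rose by 1.28 ± 0.23 (1.20 ± 0.19 length-adjusted). Trrap, a scaffold of histone acetyltransferase complexes, and Filip1l, a filamin-interacting protein, had changes of 0.71 ± 0.22 and 0.61 ± 0.23, and of 1.22 ± 0.19 and 1.62 ± 0.24 length-adjusted. The uncorrected calls of both were weak. Trrap had an adjusted p of 0.0703, 0.0657 and 0.11 without OGD-empty replicates 1 and 3 and OGD-miR-29 replicate 3. Filip1l was at 0.068 to 0.148 without any 1 OGD library other than OGD-miR-29 replicate 1.

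**Figure D4:**
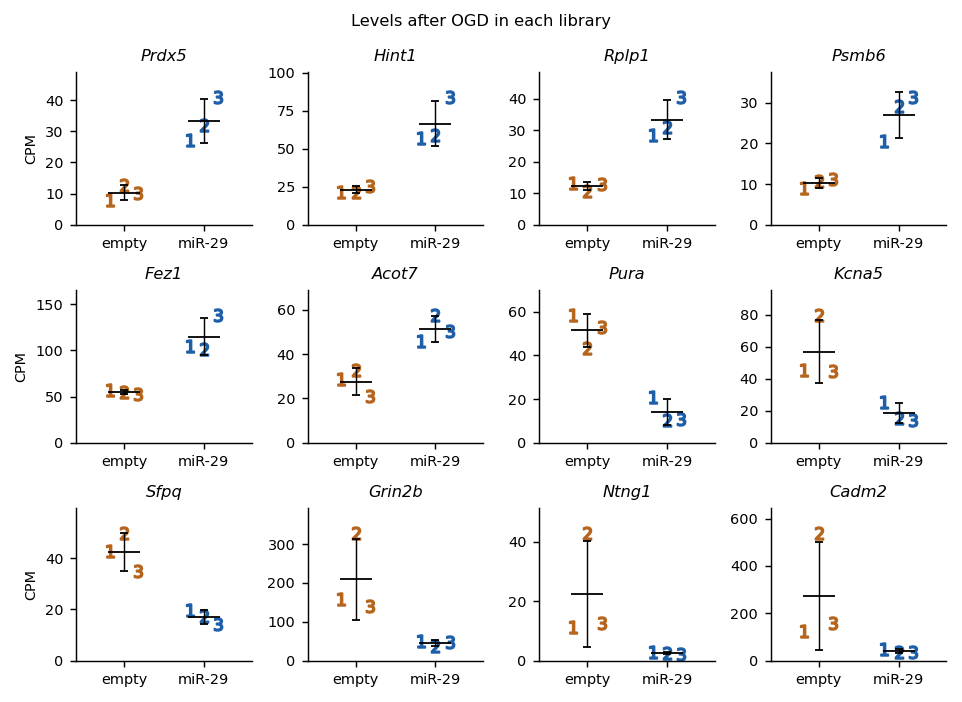
Levels of 12 genes (CPM, vertical axis from 0) in OGD-empty and OGD-miR-29 cultures; digits are the replicate numbers, horizontal ticks the means and bars the SD (n = 3). The groups do not overlap in any of the 12 genes, which the naming rule required of most of them. OGD-empty replicate 2 is far above the other libraries in Grin2b, Ntng1 and Cadm2.

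Genes with a match to the miR-29 seed had a lower median than genes without one, and the size of the difference depended on the length of the 3′ UTR. The matches searched were TGGTGCT and GGTGCTA, which together cover the 8mer TGGTGCTA, in the longest annotated 3′ UTR on the strand of the gene. Of 10064 genes with a 3′ UTR, 2053 (20.4%) had a match, with a median log2 fold change of -0.25 against 0.05 for the 8011 without. In the length-adjusted fit the medians were -0.05 and 0.05. For the 356 genes with an 8mer the median was -0.33, with 38 called higher (10.7%) and 124 lower (34.8%). Of all genes with a 3′ UTR, 15.9% were higher and 21.1% lower. Length-adjusted, the median of the 8mer genes was -0.12, with 27 higher and 63 lower. Of the 10064 genes, 1179 were higher and 1066 lower in that fit.

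The length of the 3′ UTR moved with the virus effect on its own. In 5 classes of UTR length the median log2 fold change went from 0.44 (up to 440 bases) through 0.25, 0.05 and -0.20 to -0.61 (2902 bases and longer). After the gene-length correction it still went from 0.22 to -0.23. Within gene-length class 4 the median was 0.05 for genes with the shortest UTRs and -0.50 for those with the longest. Base composition moved as well, from -0.54 in the class with the least GC in the UTR to 0.31 in that with the most. Within the 5 UTR classes, genes with a miR-29 match differed from genes without by 0.01, 0.02, 0.12, 0.13 and -0.04, so in no class but the longest was the difference on the lower side. There the 176 genes with an 8mer had a median of -0.77, against -0.65 for the 618 with no match of any kind. Within the 5 classes of gene length, genes with a match were lower in each (0.55 against 0.67, 0.36 against 0.46, 0.09 against 0.20, -0.30 against -0.20 and -1.04 against -0.93), and their 3′ UTRs were longer in each. Over all genes the difference was -0.30 for miR-29, and for the seeds of other microRNAs, chosen after the data had been seen, it was -0.31 (let-7a-5p), -0.42 (miR-9-5p), -0.36 (miR-128-3p) and -0.49 (miR-26a-5p).

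**Figure D5:**
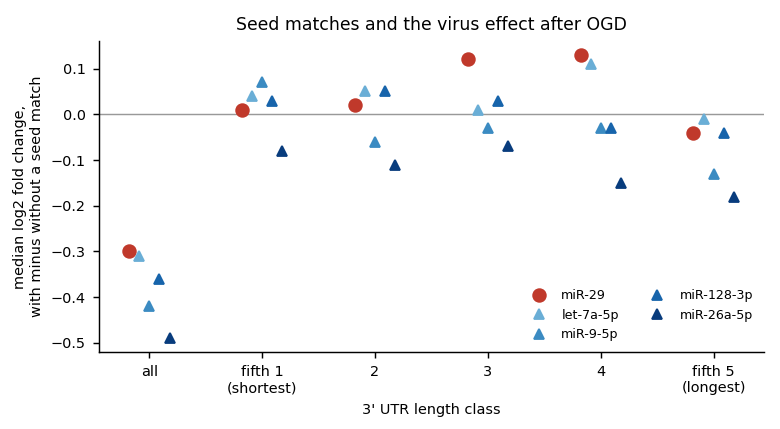
Median log2 fold change of genes with a seed match minus that of genes without (vertical axis), over all genes with a 3′ UTR and within 5 classes of UTR length (horizontal axis). Circles are miR-29 and triangles the seeds of 4 other microRNAs; the differences of -0.30 to -0.49 over all genes shrink to between -0.18 and 0.13 within classes.

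Single genes with an 8mer went both ways. The sites are shown because they are the letters that a direct miR-29 effect would read, 5′ to 3′ as in the mRNA with T for U, the 8mer in capitals.
Grin2b: ggccattttctcttTGGTGCTAttctcata
Rfx7: ttctaataaatcaaTGGTGCTAgagttggc
Man1a2: agaattctggatctTGGTGCTAcagaaaac
Rbm26: taggaaacagtcatTGGTGCTAtaaaacct
Fh1: atagtgttaaggatTGGTGCTAgcccatgg
Bdh1: gcctaggacaggatTGGTGCTAtgcttggt
They begin at base 12292, 1644, 4454, 1964, 641 and 797 of the annotated 3′ UTRs, and the genes lie on chromosomes 6 (135713233 to 136173511), 9 (72532240 to 72622937), 3 (100562208 to 100685503), 14 (105106751 to 105177327), 1 (175600374 to 175625635) and 16 (31422280 to 31458901).

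Of these, Rfx7, a winged-helix transcription factor, was at 27.8, 56.9 and 29.5 CPM in OGD-empty and 10.3, 11.4 and 10.6 CPM in OGD-miR-29 (-1.81 ± 0.28, adjusted p = 0.000542; -1.22 ± 0.20 length-adjusted). Rbm26, an RNA-binding protein of nuclear RNA decay, was at 18.8, 39.3 and 25.7 against 8.27, 10.2 and 4.81 CPM (-1.78 ± 0.29; -1.31 ± 0.24). The Golgi mannosidase Man1a2 was at 29.6, 35.2 and 34.8 against 16.0, 10.2 and 11.5 CPM (-1.35 ± 0.22; -0.67 ± 0.20). Pura holds an 8mer as well. The kinase gene Cdc42bpa fell by 1.51 ± 0.27, and was at -0.49 ± 0.18 length-adjusted. On the other side, Fh1, the mitochondrial fumarase, was at 8.96, 10.8 and 6.43 CPM in OGD-empty and 18.7, 15 and 24.0 CPM in OGD-miR-29 (1.11 ± 0.25, adjusted p = 0.00275; 1.01 ± 0.24 length-adjusted). Bdh1, a ketone body enzyme of mitochondria, was at 19.8, 19.4 and 20.9 against 27.2, 37.0 and 35.6 CPM (0.72 ± 0.21; 0.77 ± 0.19). The ubiquitin ligase Trim27 rose by 0.99 ± 0.31 (not called length-adjusted, adjusted p = 0.0595), with an adjusted p of 0.0728 without OGD-miR-29 replicate 1.

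Of 46 genes listed as reported miR-29 targets 33 were measured, and 15 were lower and 4 higher, against 19.9% and 17.2% of all genes (median -0.44, and -0.10 with 3 lower and 3 higher length-adjusted; 14 lower and 1 higher without OGD-empty replicate 2). The median length of these genes was 78.8 kb. Dnmt3a, a DNA methyltransferase, did not pass the test. It was at 53.4, 53.3 and 52.0 CPM in OGD-empty and 40.2, 45.3 and 40.9 CPM in OGD-miR-29, groups that did not overlap (-0.33 ± 0.20, adjusted p = 0.191; 0.26 ± 0.18 length-adjusted). The 5-methylcytosine dioxygenases fell: Tet2 went from 19.8, 30.3 and 18.2 to 10.7, 11.8 and 7.21 CPM (-1.16 ± 0.27, adjusted p = 0.00311; -0.68 ± 0.21 length-adjusted, called). Tet1 fell by 0.82 ± 0.26 and Tet3, which shares counts with Bola3, by 1.01 ± 0.29, neither of them called length-adjusted. The growth factor gene Igf1 was at 34.4, 23.9 and 24.1 against 15.8, 2.36 and 6.25 CPM (-1.62 ± 0.46, and -1.22 ± 0.32 length-adjusted, adjusted p = 0.0182 by edgeR before length adjustment). Bace1, whose neighbour Rnf214 held 1.03 of its count, was at -0.89 ± 0.21 (-0.95 ± 0.19 length-adjusted, called). Hdac4 (-1.54 ± 0.28) and Nav3 (-1.25 ± 0.25) were called lower, but were at -0.37 and 0.46 length-adjusted, not called. Without 1 library the calls of Tet1 (0.099 without OGD-empty replicate 1, 0.0854 without OGD-miR-29 replicate 2), Tet3 (0.0542 without OGD-miR-29 replicate 2) and Igf1 (0.0549 without OGD-empty replicate 1, 0.0697 without OGD-miR-29 replicate 3) were lost.

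Other reported targets stood elsewhere. Vdac1, the main channel of the outer mitochondrial membrane, rose from 70.3, 65.5 and 65.9 to 106, 119 and 142 CPM (0.86 ± 0.19, adjusted p = 0.00186; 0.81 ± 0.18 length-adjusted). The collagen gene Col3a1, which has an 8mer, was at 9.57, 10.4 and 14.5 against 13.0, 18.5 and 16.3 CPM (0.50 ± 0.26, adjusted p = 0.128). The metabolic coactivator gene Ppargc1a fell by 1.11 ± 0.31, and the glutamate transporter gene Slc1a2, which has a 7mer match, by 1.18 ± 0.23, with length-adjusted values of -0.48 and -0.49 that were not called. Of 25 extracellular matrix genes 9 were lower (36.0%) and 0 higher, against 19.9% and 17.2% of all genes (median -0.29). Length-adjusted, 3 were lower and 1 higher (median -0.02), against 12.4% and 11.9% of all genes.

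The BCL2 family sets the threshold for mitochondrial cell death. Of 13 measured genes 4 were higher (30.8%) and 1 lower (7.69%), against 17.2% and 19.9% of all genes (median 0.42, and 0.10 length-adjusted). Without OGD-empty replicate 2, 0 were higher and 2 lower (median 0.30), so the call of each rise was lost without that library. The pro-apoptotic Bbc3, a BH3-only gene, was at 6.95, 3.61 and 12.9 CPM against 11, 17.3 and 18.3 CPM (1.00 ± 0.32, adjusted p = 0.019), and the groups overlapped. Bax, which permeabilises the mitochondrial membrane, was at 33.7, 23 and 45 against 59.0, 63.0 and 38.9 CPM (0.67 ± 0.23), also with overlap, and Bnip3 rose by 0.64 ± 0.22 without overlap. Their neighbours Sae1, Gys1 and Ppp2r2d held 1.79, 1.01 and 1.51 of their counts, and none of the 3 was called length-adjusted. Leaving out OGD-empty replicate 2 put their adjusted p at 0.0521, 0.102 and 0.103. The calls were also lost (0.0585 to 0.11) without OGD-empty replicate 1 or OGD-miR-29 replicate 2 or 3 for Bbc3, without OGD-empty replicate 1 or OGD-miR-29 replicate 1 or 2 for Bax, and without OGD-empty replicate 3 or OGD-miR-29 replicate 2 or 3 for Bnip3. The 1 lower gene was Bcl2 itself, an inhibitor of cell death, at 7.72, 26.6 and 7.50 CPM in OGD-empty and 2.76, 4.33 and 4.81 CPM in OGD-miR-29 (-1.83 ± 0.56, adjusted p = 0.0255). It was at -1.09 without OGD-empty replicate 2 and at -0.83 length-adjusted (adjusted p = 0.0573), and its adjusted p was 0.059 to 0.121 without any 1 miR-29 library. Mcl1, also an inhibitor, rose from 21.5, 21.7 and 23.6 to 33.4, 31.5 and 33.2 CPM (0.56 ± 0.19, adjusted p = 0.0258). The call of Mcl1 was lost without OGD-empty replicate 1 or 2 or OGD-miR-29 replicate 1 or 3 (0.0532 to 0.0873), and its length-adjusted value was 0.10 ± 0.18. Bbc3 was not typical of the BH3-only genes listed as reported targets. Hrk was at -0.05 ± 0.21, and Bcl2l11 at -0.88 ± 0.37 (-0.82 ± 0.38 length-adjusted), called in neither fit. Without OGD-empty replicate 2, Bcl2l11 was called lower, beside Bcl2.

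Stress genes were mixed. Their counts stand beside 17.2% higher and 19.9% lower of all genes, and 11.9% and 12.4% length-adjusted. Of 21 immediate early genes 9 were higher and 2 lower (median 0.55; 4 and 3 with 0.32 length-adjusted; 8 and 4 without OGD-empty replicate 2). Atf3, a stress transcription factor of 47.7 kb, was at 6.18, 6.77 and 6.97 CPM in OGD-empty and 13.2, 14.6 and 13.9 CPM in OGD-miR-29 (1.08 ± 0.26, adjusted p = 0.0041; 1.28 ± 0.25 length-adjusted). Btg2, an antiproliferative early gene, was at 3.86, 3.16 and 5.90 against 9.55, 10.2 and 9.62 CPM (1.23 ± 0.28; 0.77 ± 0.29). Egr1, chosen after its values were seen because it went the other way, was at 12.4, 9.03 and 13.4 against 7.35, 7.09 and 3.85 CPM (-0.87 ± 0.29, adjusted p = 0.0239; -1.31 ± 0.28 length-adjusted). Without OGD-empty replicate 1 or 3 or OGD-miR-29 replicate 3 the call of Egr1 was lost, at an adjusted p of 0.0599 to 0.0906.

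Of 22 antioxidant genes 13 were higher (59.1%) and 2 lower (9.09%), with a median of 0.66. Length-adjusted, 5 were higher and 2 lower (median 0.29). The 2 lower were the same in both fits. They were Nfe2l2 (-1.34 ± 0.38, and -1.36 ± 0.35 length-adjusted) and Gclm (-0.74 ± 0.24, and -0.80 ± 0.23). Each held fewer counts than a neighbour. The neuronal metallothionein Mt3 was at 7.41, 6.32 and 6.97 against 14.3, 16.9 and 13.9 CPM (1.10 ± 0.23, and 0.60 ± 0.24 with an adjusted p of 0.0637 length-adjusted), and thioredoxin, Txn1, rose by 0.99 ± 0.26. Of 19 endoplasmic reticulum chaperone genes 9 were higher and 0 lower (median 0.54; 4 and 0 length-adjusted), among them Herpud1, a component of protein degradation at that membrane, which rose by 1.14 ± 0.23 and stayed called length-adjusted. Heat shock genes had 5 higher (41.7%) and 1 lower (8.33%) of 12, and 1 and 1 length-adjusted. The constitutive chaperone Hspa8, which shares counts with Snord14c, rose by 1.01 ± 0.19, whereas Hsph1, a nucleotide exchange factor sharing counts with Wdr95, fell by 0.86 ± 0.22. Of 19 integrated stress response genes 3 were higher and 3 lower (15.8% each), near the 17.2% and 19.9% of all genes. The median of this list was 0.35, with 2 higher and 3 lower length-adjusted. The 3 higher were the transcription factors Atf4 (0.97 ± 0.19) and Ddit3 (0.92 ± 0.20), and Asns (0.61 ± 0.21). Of these only Atf4 stayed called length-adjusted (0.48 ± 0.18). Atf4 and Ddit3 each held fewer counts than a neighbour. The 3 lower were Slc7a11 (-1.28 ± 0.25), Slc7a5 (-0.66 ± 0.25) and Vldlr. Vldlr, a lipoprotein and reelin receptor, went from 38.1, 32.5 and 45 to 25.9, 16.9 and 19.2 CPM (-0.87 ± 0.21). Hypoxia-inducible factor targets (2 higher and 1 lower of 13, median 0.13), cholesterol genes (5 and 1 of 20, 0.13), p53 targets (4 and 1 of 14, 0.02) and interferon response genes (0 and 0 of 4, -0.05) were also measured, against 17.2% higher and 19.9% lower of all genes. The hypoxia list had 0 higher and 2 lower without OGD-empty replicate 2, the cholesterol list 5 and 2 and the p53 list 2 and 2. Length-adjusted, they had 1 and 0, 2 and 1, and 1 and 2. For the interferon genes, 0 were at an unadjusted p under 0.05 by edgeR.

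Cell type markers were examined because in bulk RNA fewer cells of a type and less RNA per cell cannot be told apart. All 17 pan-neuronal markers were measured, with a summed level of 1505 to 1737 CPM in OGD-empty and 1256 to 1392 CPM in OGD-miR-29. Of these, 5 were higher (29.4%) and 6 lower (35.3%), against 17.2% and 19.9% of all genes, and the direction went with length. Nefl, the light neurofilament of 5.2 kb, which shares counts with Nefm, was at 43.4, 44.3 and 47.2 against 74.4, 89.4 and 124 CPM (1.09 ± 0.22; 0.59 ± 0.18 length-adjusted). Dcx, a microtubule protein of young neurons of 77.5 kb, was at 70.7, 72.3 and 65.9 against 38.8, 23.6 and 28.4 CPM (-1.19 ± 0.23; -0.75 ± 0.19). In the length-adjusted fit 8 pan-neuronal markers were higher and 1 lower.

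The summed level of 13 astrocyte markers was 194 to 207 CPM in OGD-empty and 152 to 167 CPM in OGD-miR-29, the defining marker Gfap not being in the table. Among the 13, 2 were lower (15.4%) and 0 higher, against 19.9% and 17.2% of all genes. One was Slc1a2 and the other the bicarbonate transporter Slc4a4, at 19.6, 37.9 and 21.4 against 8.08, 4.33 and 5.77 CPM (-2.01 ± 0.38; -0.73 ± 0.26). Of 14 interneuron markers 2 were higher (14.3%) and 5 lower (35.7%), with 1 and 4 without OGD-empty replicate 2 and 0 and 1 length-adjusted. The summed level of these markers was 1005, 1639 and 927.9 CPM in OGD-empty and 751, 688.5 and 514.9 CPM in OGD-miR-29. The signalling protein Reln fell by 0.80 ± 0.22, but was at 0.52 ± 0.26 (adjusted p = 0.154) in the length-adjusted fit. Microglia markers had 3 higher of 6, and the 3, Aif1 (1.54 ± 0.38), Fcer1g (1.07 ± 0.40) and Cd68 (0.98 ± 0.26), each held fewer counts than a neighbour. Fcer1g and Cd68 were not called length-adjusted (adjusted p = 0.266 and 0.155). The summed level of the list was 33.8 to 39.7 CPM in OGD-empty and 53.1 to 63.5 CPM in OGD-miR-29, the defining markers P2ry12 and Tmem119 not being in the table. Oligodendrocyte lineage markers had 2 higher of 6 (33.3%), with summed levels of 31.4 to 37.5 and 43.7 to 48.6 CPM. Endothelial and mural markers had 1 of 1 higher (3.55 to 5.36 and 7.53 to 16.8 CPM). Proliferation markers had 2 higher (28.6%) and 1 lower (14.3%) of 7. The part of cell composition in the virus effect was not tested.

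Non-coding rows were examined by annotated type. Over all genes, 17.2% were called higher and 19.9% lower. Small nucleolar RNA rows had 47.9% and 10.1%, and processed pseudogenes 37.5% and 4.21%. Of 257 small nucleolar RNA rows 123 were higher and 26 lower (median 0.73; 81 and 38 with 0.37 length-adjusted), and of 10 named snoRNA host transcripts 7 were higher and 1 lower (median 1.06; 3 and 1 length-adjusted). Reads of a host gene and of the snoRNAs in its introns cannot be told apart in this table. Processed pseudogenes had 116 higher and 13 lower of 309 (median 0.64), but 40 higher and 41 lower in the length-adjusted fit (median 0.17). Of 183 long intergenic RNAs 28 were higher (15.3%) and 31 lower (16.9%), shares near those of all genes. Length-adjusted, 21 were higher and 53 lower (median -0.42), against 11.9% and 12.4% of all genes, so the lower share was then above that of all genes.

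The most negative values of the whole table were mostly in predicted genes. A log2 fold change under -3.5 was found in 11 rows, of which 10 are predicted Gm genes, 7 of them near the start of chromosome 9. The other was 4930419G24Rik, at 2.8, 25.7 and 5.4 CPM in OGD-empty replicates 1 to 3 and 1.1, 0.0 and 0.5 CPM in OGD-miR-29, highest in replicate 2. Gm10800 on chromosome 2 (98666547 to 98667301) was at 1725, 42.9 and 2892 CPM in OGD-empty replicates 1 to 3 and 65.4, 80.7 and 54.8 CPM in OGD-miR-29, with 29.6 to 89.7 CPM in the sham libraries. OGD-empty replicates 1 and 3 were thus far above all other libraries, and replicate 2 was not. Gm10720 on chromosome 9 (3015654 to 3017210) was at 25.3, 1.8 and 38.1 against 0.7, 1.6 and 0.0 CPM. The call of Gm10800 (-4.53, adjusted p = 0.0278) was lost without OGD-empty replicate 1 (0.058) or 3 (0.0624) and with the replicate block (0.0744). Gm10801, Gm21738 and Gm26870 lost their calls without either of these libraries as well (0.0547 to 0.0726), and Gm10801 and Gm26870 also with the replicate block (0.0856 and 0.0551). Gm10717, Gm10718, Gm10719, Gm10720, Gm10721 and Gm10722 did not pass the count filter without OGD-empty replicate 1 or 3. The same held for 4930419G24Rik without OGD-empty replicate 2 or 3. Their calls could not be checked in those fits, because they entered the test only through the libraries where they were high. All 11 rows were chosen after their values were seen.

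In sham cultures the same virus comparison called 0 of 12119 genes by edgeR, and DESeq2 and limma-voom called 0 as well. Before adjustment, 405 genes were under 0.05 by edgeR, 146 by DESeq2 and 373 by limma-voom. There the medians of the respiratory chain, ribosomal protein, adhesion and channel lists were -0.17, -0.17, -0.07 and 0.02. A p above the threshold with n = 2 and 3 does not show that the virus had no effect there. The difference itself, the interaction of virus and OGD, was called for 1015 genes (8.38%), 572 on the higher and 443 on the lower side after OGD, and for 1861 (15.4%) with the replicate block. Of the respiratory chain genes 27 of 48, of ribosomal protein genes 13 of 32, of voltage-gated channel genes 7 of 24 and of adhesion genes 4 of 40 were called in that test. The count of 1015 was 634 without OGD-miR-29 replicate 2, 439 without OGD-miR-29 replicate 3 and 1516 without OGD-empty replicate 2.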

How the data were processed

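Gene counts were deposited by the authors as raw counts per gene symbol; the submitters' processing notes name STAR 2.5.0a, featureCounts 1.4.3-p1, edgeR and mm10. Sham-empty replicate 3 was left out because its column held no read counts (sum 22859, median 1). The other 11 libraries were fitted together with edgeR 4.0.16 in R 4.3.3 (TMM, filterByExpr, robust quasi-likelihood F test, 4 group means), with Benjamini-Hochberg adjustment over 12119 of 12145 rows and a threshold of 0.05. CPM values are library-scaled counts, with TMM factors. Errors beside log2 fold changes are SE. In the length-adjusted fit a loess trend (span 0.3) of log2 CPM on gene length was removed from each library and the replicate number added. Alternatives used DESeq2 1.42.0 and limma 3.58.1 (voom), other filters, and each OGD library left out. Lengths, 3′ UTRs and coordinates came from GENCODE annotation of GRCm38. No per-sample column was left unmapped.

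Replicate numbers pair the cultures because the design text gives a dissection day per number. The deviations of same-numbered OGD libraries correlated at 0.122, -0.068 and -0.02. P-values measure the spread between these cultures.

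Genes were named by rule: the 10 largest called rises and falls with a mean count of at least 20, groups apart, 3 of 3 pairs alike and no neighbour holding 0.5 of the count; the 6 each way with the lowest p after length correction; up to 4 per list; and genes with an 8mer. Beyond that rule, members of the reported-target and BCL2 family lists were named as needed, and so were some members of other lists. The members, gene lists and rules were chosen with earlier results of these data known. The main fit and a fit with the length trend removed and no block were run on simulated counts. The length-adjusted fit with the block, DESeq2 and limma-voom were not. Some named genes are not reported here.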

Additional observations from a re-analysis of the deposited data

Results flagged for a closer look

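For 54 of the 96 named genes the virus effect after OGD differed from that in sham cultures by the interaction test of edgeR (adjusted p from 0.00663 to 0.0461). Over all genes tested the share called was 8.38%. Of the 96, 94 were called after OGD, and that effect is part of the interaction. The count of 54 is therefore not independent support for a difference between OGD and sham. The values are the effect after OGD minus the effect in sham, on the log2 scale. The difference was on the higher side for 23 genes: Atp5h (2.14), Rps4x (2.14), Prdx5 (1.99), Hint1 (1.91), Fh1 (1.84), Guk1 (1.79), Usmg5 (1.74), Rplp1 (1.67), Rpph1 (1.67), Mt3 (1.57), Atp5g3 (1.54), Txn1 (1.53), Eif3i (1.51), Btg2 (1.39), Fez1 (1.33), Trrap (1.27), Sult4a1 (1.23), Pkm (1.21), Hspa8 (1.17), Acot7 (1.05), Eno2 (1.05), Aldoa (0.98), Vdac1 (0.98).

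It was on the lower side for 31 genes: Slc4a4 (-2.67), Epha5 (-2.25), Hnrnpd (-2.24), Gria3 (-2.24), Tsc22d2 (-2.24), Grin2b (-2.20), Kdm6a (-2.07), Syt1 (-1.97), Gabra2 (-1.94), Rfx7 (-1.86), Pura (-1.84), Bsn (-1.82), Kcna5 (-1.82), Man1a2 (-1.82), Gabrb2 (-1.79), Ythdf3 (-1.74), Tcf4 (-1.69), Atrx (-1.66), Rbm26 (-1.6), Cdc42bpa (-1.58), Scn8a (-1.54), Slc1a2 (-1.53), Kcna1 (-1.53), Stxbp5 (-1.52), Tet2 (-1.5), Sfpq (-1.47), Scn2a1 (-1.41), Dcx (-1.3), Gria2 (-1.3), Mbnl2 (-1.28), Cntn1 (-1.13). With the replicate block all 54 stayed under the threshold. The sham-empty group had 2 libraries, and the count of genes called in this test over the whole table changed with the library left out.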

How the results depend on the processing

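The count of 4501 genes called after OGD was 3457 to 4684 with the replicate block, DESeq2 or its size factors, limma-voom, other filters, the mitochondrial rows left out or the 6 OGD libraries alone. It was 2717 with the length trend removed, 2900 with the replicate block as well, and 565 of the 1465 genes alone in their counting region. Leaving out 1 library gave 3190 to 4180. The interaction count of 1015 was 1861 under the block and 570 with the length trend removed and no block, 183 of the 1465 genes alone in their counting region, and 836 to 1043 with the length-adjusted fit, DESeq2 or its size factors, limma-voom, other filters or the mitochondrial rows left out. For the interaction, the length trend without the block, size factors, filters, mitochondrial rows and genes alone in their region were chosen after seeing the data. With 1 library left out it was 439 to 1516 (634 without OGD-miR-29 replicate 2, 439 without replicate 3).

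Of 94 named calls the replicate block kept all 94. The length-adjusted fit kept 74, DESeq2 88 and limma-voom 93. The sign changed for 3 genes when the length trend was removed, without and with the block: Cntn1 (0.08 and 0.09), Dnmt3a (0.26 and 0.26) and Reln (0.48 and 0.52). The cause was not tested. Low depth outside the mitochondrial rows limits the smaller changes.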
